A study of Mus musculus with 18 samples.

Results

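The 6 genes described here, Map2, Nrgn, Pcp4l1, Nptx1, Cacng7 and Draxin, are known for roles in neurons and were measured in mouse O9-1 cells, a multipotent neural crest line from the embryonic head. They are 6 of the 55335 gene identifiers in the count tables, and they were chosen by large differences in their counts between groups of these same libraries, so their differences are given as a description and without a test. Wild-type O9-1 cells were kept in osteoblast differentiation medium and sequenced as bulk polyA RNA at d2.5 and at d5, in 18 libraries. On each day the groups were Ctrl+vehicle (control siRNA, no FGF2), Ctrl+FGF2 (control siRNA, with FGF2) and Y/T dKD+FGF2 (siRNA against Yap and Taz, with FGF2), with 3 libraries each. The knockdown was made only in the presence of FGF2, so every knockdown value is set against Ctrl+FGF2 unless stated. The labels number the replicates and do not say whether they were separate cultures, so the spread between them may be technical. The labels also give each day as its own batch, so day and batch cannot be told apart.

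Neurons polarise into an axon and dendrites, which are held by microtubules and their associated proteins, and they receive signals at synapses where glutamate opens AMPA receptors and calcium acts through calmodulin. Secreted guidance cues steer the growing axon, and several of them are also made by cells that are not neurons. Neural crest cells give rise to peripheral neurons and glia as well as to bone and cartilage of the face. Yap and Taz are coactivators that do not bind DNA themselves and reach it mainly through TEAD factors.

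Neuron markers were measured in part. Of 27 neuron markers, 7 (Rbfox3, Elavl3, Dcx, Nefl, Nefh, Cntn2 and Gng3) were at 0 in all 18 libraries, and 13, with those included, stayed under 10 counts in every library. The other 14 reached at least 10 counts in some library, among them Stmn2 (1917 counts over the 3 d2.5 Ctrl+vehicle libraries), Tubb3 (919 counts there) and Eno2 (694 to 1395 counts in each group). The proneural factors Neurog1 and Neurog2 were also at 0 throughout. The summed level of the neuron markers, most of it from the cell adhesion gene Ncam1, ranged from 385 to 401 CPM (counts scaled to library size) in the d2.5 Ctrl+vehicle libraries, from 316 to 324 with FGF2 and from 311 to 324 with the knockdown. At d5 the corresponding ranges were 254 to 261, 206 to 227 and 228 to 242 CPM. Of 18 neural crest markers, 5 stayed under 10 counts in every library, and 4 of these (Sox10, Foxd3, Pax7 and Zic1) were at 0 throughout. Their summed level had a median of 2125 CPM in d2.5 Ctrl+vehicle, 1642 with FGF2 and 1756 with the knockdown, and at d5 of 2456, 2632 and 2378 CPM. Single neural crest markers moved both ways at d5 (edgeR, adjusted p under 0.05). Of 12 tested, 6 rose and 4 fell with FGF2 (50% and 33.3%, beside 23.5% and 23.7% of all genes). With the knockdown 5 rose and 4 fell (41.7% and 33.3%, beside 15.6% and 16.1%). Of 14 glia markers, 8 stayed under 10 counts in every library, and 3 of these were at 0 throughout. They summed to a median of 185, 140 and 134 CPM at d2.5 and 382, 423 and 397 CPM at d5, in the same order of groups. Single markers entered this sum unevenly. From d2.5 to d5 in Ctrl+vehicle Gas7 went from 26.8 to 80.1 CPM, Mbp from 2.79 to 3.06 and Egr2 from 0.21 to 3.88. Most of the summed level came from glia markers that are not given one by one here. The summed level of 14 osteoblast markers moved with the groups. Its median was 38016 CPM in d2.5 Ctrl+vehicle, 16748 with FGF2 and 18949 with the knockdown, and at d5 it was 83686, 47469 and 58599 CPM. Single osteoblast markers did not all follow the sum, to which Col1a1 gave a mean of 12623 CPM in d2.5 Ctrl+vehicle. Of 12 tested at d2.5 (edgeR, adjusted p under 0.05), 9 fell with FGF2 and 3 rose (75% and 25%, beside 34.1% and 33.5% of all genes). Dmp1 (11.8 to 454 CPM) was among the 3 that rose. With the knockdown at d2.5, 6 rose and 1 fell (50% and 8.33%, beside 10.8% and 13.6% of all genes). The 1 that fell was Col1a1 (2201 to 2007 CPM), and Alpl stayed low (0.14 and 0.11 CPM). Of 13 tested at d5, 8 fell and 4 rose with FGF2 (61.5% and 30.8%, beside 23.7% and 23.5% of all genes). With the knockdown 10 of them rose and 0 fell (76.9% and 0%, beside 15.6% and 16.1%). The part of these marker shifts in the values below was not tested. In bulk RNA fewer cells that express a gene cannot be told apart from less RNA per cell.

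The libraries held between 10377151 and 14698525 reads counted in genes. In the knockdown libraries Yap1 was left at 51.9% of its Ctrl+FGF2 level at d2.5 and 46.2% at d5, and Wwtr1, which encodes Taz, at 61.2% and 57.7%. FGF2 itself raised Wwtr1 at d2.5, from 140 to 221 CPM (edgeR log2 fold change 0.65, adjusted p = 1.3e-16), so its knockdown level there, 135 CPM, lay near that of vehicle. All knockdown libraries lay below all Ctrl+FGF2 libraries of their day for both genes. CPM values were scaled with TMM factors (trimmed mean of M values, which set library sizes from the bulk of genes) over all 18 libraries. Each fold is a ratio of group mean CPM, with a 95% interval that covers counting error only.

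RefSeq (GRCm38.p6) gave a promoter window, from 250 bases before to 50 bases after the start, for 5 of the 6 genes, Nptx1 excepted. Each window was searched on both strands for 6 motifs. The core of TEAD sites was read as GGAATG. The AP-1 motif was read as TGANTCA. For ETS factors the letters CCGGAA were used, for the cAMP response element TGACGTCA, and for the TATA box TATAAA. For REST, a repressor of neuronal genes, TTCAGCACC was used, the left part of its site. GGAATG was found in 2 of the 5 windows, those of Nrgn and Cacng7, against 14.6% of 32544 mouse promoter windows of the same length. The 250 bases before the RefSeq start of these genes are shown, with the match in capitals, because TEAD factors carry the knocked-down coactivators to DNA. The Nrgn stretch is chr9:37552746-37552995 (minus strand) and the Cacng7 stretch is chr7:3332575-3332824 (plus strand), both read 5′ to 3′ along the gene. For both genes the RefSeq start differs from the start of the gene span given below. The Nrgn span, on the minus strand, starts at 37552904, so the match lies inside it. The Cacng7 span starts at 3332955, beyond the end of the stretch.
Nrgn: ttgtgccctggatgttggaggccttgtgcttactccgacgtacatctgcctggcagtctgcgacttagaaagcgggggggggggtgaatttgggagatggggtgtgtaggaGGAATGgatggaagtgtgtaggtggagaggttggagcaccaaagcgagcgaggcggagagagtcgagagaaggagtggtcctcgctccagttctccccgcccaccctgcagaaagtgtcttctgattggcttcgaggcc
Cacng7: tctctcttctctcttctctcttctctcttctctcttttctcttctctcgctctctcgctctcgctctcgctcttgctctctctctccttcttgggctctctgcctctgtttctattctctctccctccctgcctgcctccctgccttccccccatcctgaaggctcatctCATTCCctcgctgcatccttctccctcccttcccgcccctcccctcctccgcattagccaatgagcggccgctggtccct
In Nrgn the match reads forward and begins at position −139 from the RefSeq start. In Cacng7 it lies on the opposite strand, with its leftmost base at position −80. TATAAA was found only in Pcp4l1, beginning at the start base itself, and is in 13.6% of all windows. The Map2 and Draxin windows held none of the 6 motifs, and their share of G and C was 77.7% and 78.0%, above 97.9% and 98.1% of all windows (median 53%). The AP-1, ETS, cAMP response element and REST letters are present in 7.79%, 15.0%, 1.80% and 0.372% of all windows and in none of the 5. A match describes letters in the window, and binding was not analysed here.

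**Figure D1:**
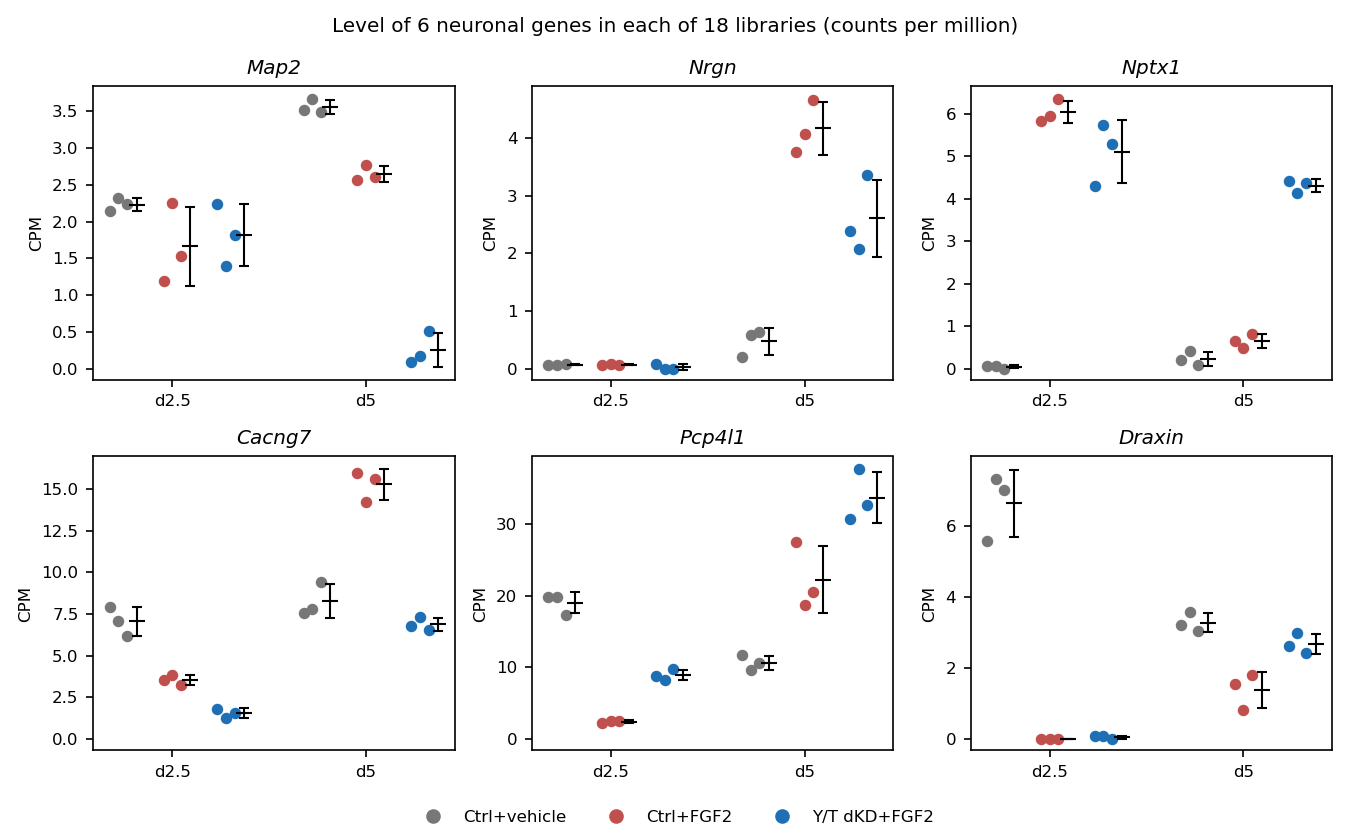
Level in CPM (linear axis, a separate scale for each gene) of the 6 genes, with 1 point per library and the mean and SD (n = 3) beside each group, grey for Ctrl+vehicle, red for Ctrl+FGF2 and blue for Y/T dKD+FGF2. Draxin was at 0 in the 3 d2.5 Ctrl+FGF2 libraries, and Map2 stayed at or below 0.509 CPM in the d5 knockdown libraries while every other Map2 value was at least 1.20 CPM.

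Map2 (ENSMUSG00000015222.17, GRCm38 chromosome 1, 66175273 to 66442583, plus strand) encodes a microtubule-associated protein of dendrites. Its raw counts at d2.5 were 31, 36 and 29 in Ctrl+vehicle, 17, 31 and 23 in Ctrl+FGF2 and 27, 18 and 23 in Y/T dKD+FGF2. The 3 groups of d2.5 overlapped. At d5 the counts were 35, 44 and 39 with vehicle, 28, 34 and 29 with FGF2, and 1, 2 and 5 with the knockdown. The d5 knockdown libraries were the only ones with fewer than 10 Map2 counts, and they lay far below both control groups. Map2 stood at 2.65 ± 0.10 CPM (SD, n = 3) in d5 Ctrl+FGF2 and at 0.25 ± 0.22 CPM in d5 Y/T dKD+FGF2, 10.4-fold lower (interval 5.42 to 26.6). Without the knockdown library that held 5 counts, the log2 ratio was −4.40 in place of −3.39. By size this was the knockdown difference of rank 5 among the 13304 genes tested at d5.

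The mean of Map2 was also lower with FGF2 alone, by much less, on both days. Map2 was not called there by edgeR (adjusted p under 0.05), which for a member is a description and not a test. At d5 the vehicle libraries, at 3.56 ± 0.09 CPM (SD, n = 3), lay above the FGF2 libraries with no overlap, a fold of 1.34 (interval 1.01 to 1.79), while at d2.5 a fold of 1.34 (interval 0.984 to 1.86) came with overlapping libraries. In order of Map2 level the groups were d5 Ctrl+vehicle, d5 Ctrl+FGF2, the 3 overlapping d2.5 groups and the d5 knockdown. Between the days Map2 was 1.59-fold higher at d5 in both control arms, and 7.17-fold lower at d5 under the knockdown (interval 3.65 to 18.3). The genes whose log2 CPM followed Map2 most closely over the 18 libraries, among 14198 genes, were Cdh18 (Pearson's r = 0.94), Efemp1 (0.91) and Prex2 (0.86). These libraries share groups and days, so r describes a pattern of group levels.

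Nrgn (ENSMUSG00000053310.11, GRCm38 chromosome 9, 37544492 to 37552904, minus strand) encodes neurogranin, a postsynaptic protein that binds calmodulin through an IQ motif. At d2.5 its counts were 1, 1 and 1 with vehicle, 1, 1 and 1 with FGF2, and 1, 0 and 0 with the knockdown. No fold is given for d2.5, where Nrgn did not pass the filter on low counts. At d5 the counts were 2, 7 and 7 in Ctrl+vehicle, 41, 50 and 52 in Ctrl+FGF2, and 28, 25 and 33 in Y/T dKD+FGF2. None of the d5 groups overlapped, and the FGF2 libraries were highest. The level was 0.47 ± 0.23 CPM with vehicle and 4.17 ± 0.46 CPM with FGF2 (SD, n = 3), 8.85-fold higher (interval 5.13 to 15.5).

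With the knockdown Nrgn stood at 2.60 ± 0.67 CPM (SD, n = 3), 1.60-fold below Ctrl+FGF2 (interval 1.24 to 2.15) and still 5.54-fold above vehicle (interval 3.08 to 9.67). Nrgn was thus measured almost entirely at d5, where it was 59.6-fold above its d2.5 level in Ctrl+FGF2 cells, an interval of 20.0 to 293 that rests on 3 counts at d2.5. Its closest genes in pattern were Foxc1 (Pearson's r = 0.98), Kctd12b (0.97) and Tns1 (0.97).

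Pcp4l1 (ENSMUSG00000038370.6, GRCm38 chromosome 1, 171173262 to 171196268, minus strand) encodes a small IQ motif protein related to Pcp4, the Purkinje cell protein that binds calmodulin. At d2.5 its counts were 288, 307 and 224 with vehicle, 31, 35 and 38 with FGF2, and 107, 106 and 123 with the knockdown. The d2.5 groups were well apart, with the knockdown between the control groups. The level was 19.0 ± 1.46 CPM with vehicle and 2.42 ± 0.21 CPM with FGF2 (SD, n = 3), 7.84-fold lower (interval 6.41 to 9.75). With the knockdown it was 8.93 ± 0.74 CPM, 3.69-fold above Ctrl+FGF2 (interval 2.95 to 4.64) and 2.13-fold below vehicle (interval 1.88 to 2.43).

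At d5 Pcp4l1 followed another order, and here FGF2 came with higher counts. They were 116, 115 and 118 with vehicle, 299, 229 and 228 with FGF2, and 361, 453 and 321 with the knockdown. No d5 group overlapped another, and the knockdown libraries were highest. Pcp4l1 stood at 10.6 ± 1.04, 22.2 ± 4.66 and 33.6 ± 3.57 CPM in that order (SD, n = 3), so that FGF2 was 2.09-fold above vehicle (interval 1.84 to 2.38) and the knockdown 1.52-fold above Ctrl+FGF2 (interval 1.40 to 1.68). On both days the knockdown was above Ctrl+FGF2, whereas FGF2 was below vehicle at d2.5 and above it at d5. In order of level, d5 Ctrl+FGF2 overlapped d2.5 Ctrl+vehicle, d5 Ctrl+vehicle overlapped d2.5 Y/T dKD+FGF2, and d2.5 Ctrl+FGF2 was lowest. Fer1l6 (Pearson's r = 0.93), Epb41l2 (0.93) and Psme2 (0.93) came closest to this pattern.

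Nptx1 (ENSMUSG00000025582.4, GRCm38 chromosome 11, 119538719 to 119547753, minus strand) encodes neuronal pentraxin 1, a secreted protein that clusters AMPA receptors at synapses. At d2.5 its counts were 1, 1 and 0 in Ctrl+vehicle, 83, 82 and 95 in Ctrl+FGF2, and 52, 74 and 67 in Y/T dKD+FGF2. Nptx1 was thus close to absent without FGF2 on this day. Its level with FGF2 was 6.05 ± 0.26 CPM (SD, n = 3), a ratio of 136 to vehicle with a wide interval, 35.6 to 1080, since the vehicle group held 2 counts in all. By the size of its fitted FGF2 difference it ranked 14 among 13677 genes tested. The knockdown libraries, at 5.11 ± 0.74 CPM, lay just below Ctrl+FGF2, 1.18-fold lower (interval 0.976 to 1.43).

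At d5 the knockdown, and not FGF2 alone, came with high Nptx1. The counts were 2, 5 and 1 with vehicle, 7, 6 and 9 with FGF2, and 52, 50 and 43 with the knockdown. All 3 knockdown libraries were several times above every control library. The level was 0.65 ± 0.16 CPM with FGF2 and 4.32 ± 0.14 CPM with the knockdown (SD, n = 3), 6.68-fold higher (interval 4.28 to 11.1). FGF2 was 2.74-fold above vehicle at d5 (interval 1.14 to 6.89), and without the vehicle library of 5 counts that log2 ratio was 2.15 in place of 1.46. Between the days Nptx1 in Ctrl+FGF2 cells was 9.36-fold lower at d5 (interval 6.11 to 15.3), while the knockdown groups of the days overlapped, with a fold of 1.18 (interval 0.954 to 1.49). Jun, a part of the AP-1 factor (Pearson's r = 0.98), Phc2 (0.97) and the FGF feedback inhibitor Spry4 (0.96) were closest in pattern.

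Cacng7 (ENSMUSG00000069806.5, GRCm38 chromosome 7, 3332955 to 3368221, plus strand) encodes an auxiliary subunit of AMPA receptors from the family of calcium channel gamma subunits. Its d2.5 counts were 115, 110 and 80 with vehicle, 50, 53 and 49 with FGF2, and 22, 16 and 20 with the knockdown. These groups stepped down without overlap. The levels were 7.07 ± 0.88, 3.55 ± 0.29 and 1.55 ± 0.29 CPM (SD, n = 3), 1.99-fold lower with FGF2 (interval 1.65 to 2.45) and a further 2.29-fold lower with the knockdown (interval 1.69 to 3.16).

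At d5 the FGF2 libraries held the most Cacng7. The counts were 75, 94 and 105 with vehicle, 174, 175 and 174 with FGF2, and 80, 88 and 64 with the knockdown. The knockdown libraries lay just below the vehicle libraries after scaling, and both lay far below FGF2. The level was 15.3 ± 0.92 CPM in Ctrl+FGF2 (SD, n = 3), 1.85-fold above vehicle (interval 1.59 to 2.14) and 2.22-fold above the knockdown (interval 1.89 to 2.59). The knockdown was therefore below Ctrl+FGF2 on both days by a similar factor, whereas FGF2 was below vehicle at d2.5 and above it at d5. In order of level d5 Ctrl+FGF2 stood alone at the top, d5 Ctrl+vehicle overlapped d2.5 Ctrl+vehicle, d2.5 Ctrl+vehicle overlapped d5 Y/T dKD+FGF2, and the other d2.5 groups were lowest. The closest genes were the alpha-tubulin gene Tuba1a, Vps37c and Ikbke (Pearson's r = 0.97 for each).

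Draxin (ENSMUSG00000029005.4, GRCm38 chromosome 4, 148098437 to 148130698, minus strand) encodes a secreted axon guidance protein that binds netrin-1 and its receptor Dcc and can inhibit Wnt signalling. Its d2.5 counts were 81, 114 and 91 in Ctrl+vehicle, 0, 0 and 0 in Ctrl+FGF2, and 1, 1 and 0 in Y/T dKD+FGF2. Draxin was thus measured at d2.5 almost only without FGF2, and the knockdown libraries stayed with the FGF2 libraries. With the Ctrl+FGF2 group set to a floor of 3 counts, Draxin was 95.2-fold below the 6.65 ± 0.94 CPM of vehicle (SD, n = 3). The counting interval, taken from the 0 counts, starts at 77.0 and has no upper limit. No fold is given between the knockdown and Ctrl+FGF2 at d2.5, with 2 and 0 counts in all.

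At d5 Draxin was detected in every library. The counts were 32, 43 and 34 with vehicle, 17, 10 and 20 with FGF2, and 31, 36 and 24 with the knockdown. After scaling the groups did not overlap, in the order vehicle, knockdown, FGF2. The levels were 3.28 ± 0.27 CPM with vehicle, 1.39 ± 0.51 with FGF2 and 2.69 ± 0.28 with the knockdown (SD, n = 3), 2.36-fold lower with FGF2 (interval 1.69 to 3.46) and 1.93-fold higher with the knockdown than with FGF2 (interval 1.37 to 2.87). The knockdown remained 1.22-fold below vehicle, with an interval of 0.913 to 1.63. Draxin overlaps Mad2l2, which starts beside it on the opposite strand, and the counts used here were read by strand, with 0 to 3 reads per library on the other strand of each member. Mad2l2 was not called in any of the comparisons, with log2 fold changes from −0.23 to −0.01. Snx18 (Pearson's r = 0.99), St5 (0.98) and the Notch target Hey1 (0.98) were closest to Draxin in pattern.

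**Figure D2:**
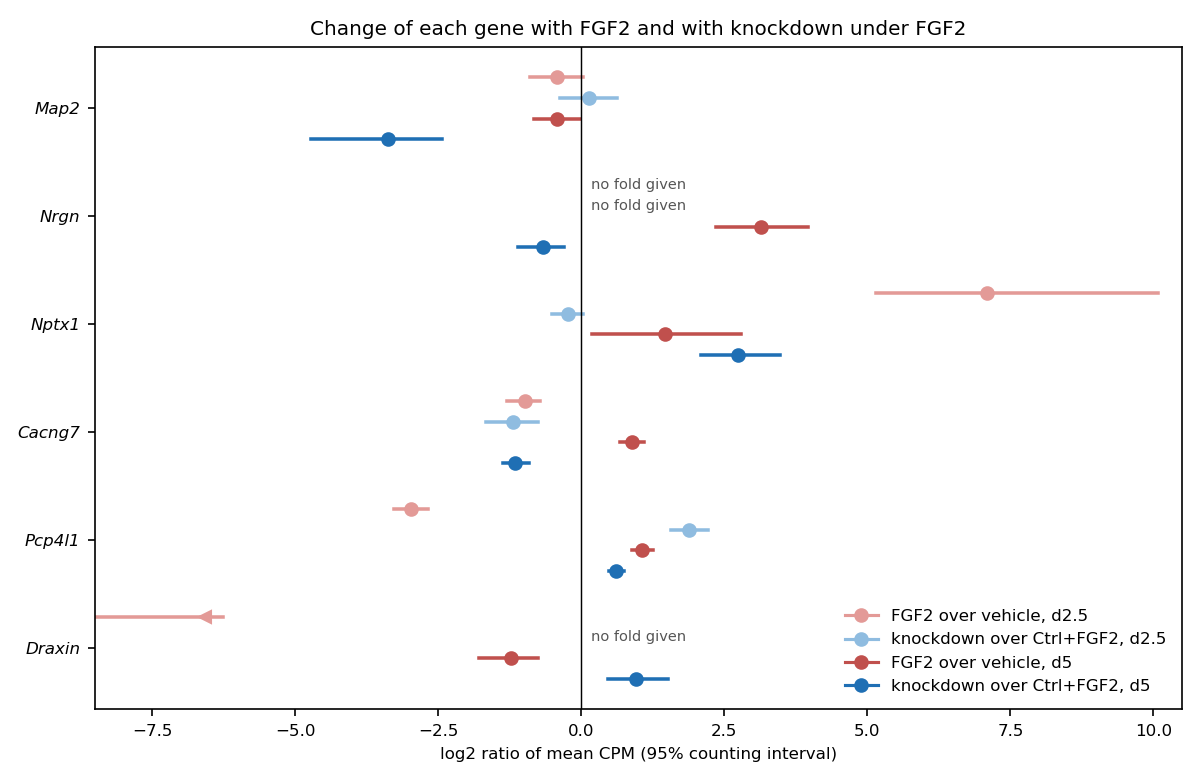
Log2 ratio of mean CPM for each gene in 4 comparisons (points), with the 95% interval for counting error (lines). The triangle marks Draxin at d2.5, a value set by the floor of 3 counts, with a line that runs off the axis. The words "no fold given" mark comparisons of 2 groups with at most 3 counts each. Cacng7 and Pcp4l1 lie left of 0 with FGF2 at d2.5 and right of 0 at d5.

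Set side by side, the 6 genes did not move as a group. Counting a gene as called at an adjusted p under 0.05 (edgeR over all genes), which for these genes describes how they were chosen, FGF2 at d2.5 had 1 of 5 tested members higher (Nptx1) and 3 lower (Cacng7, Pcp4l1 and Draxin), where 33.5% of all tested genes were called higher and 34.1% lower. At d5 FGF2 had 4 of 6 higher (Nrgn, Nptx1, Cacng7 and Pcp4l1) and 1 lower (Draxin), where 23.5% and 23.7% of all genes were. The knockdown at d2.5 had Pcp4l1 higher and Cacng7 lower, beside 10.8% and 13.6% of all genes. At d5 it had 3 higher (Nptx1, Pcp4l1 and Draxin) and 3 lower (Map2, Nrgn and Cacng7), beside 15.6% and 16.1%. Libraries of the compared groups did not overlap for 4 of 5 members with FGF2 at d2.5 (70.5% of all genes), 3 of 5 with the knockdown at d2.5 (39.4%), 6 of 6 with FGF2 at d5 (54.4%) and 6 of 6 with the knockdown at d5 (45.0%). The FGF2 and knockdown comparisons of a day share the Ctrl+FGF2 libraries, so a high or low Ctrl+FGF2 value enters both. Per kilobase of exon, the level in d2.5 Ctrl+vehicle ran from Pcp4l1 (12.0 CPM per kilobase) through Cacng7 (2.89), Draxin (1.28), Map2 (0.136) and Nrgn (0.0483) to Nptx1 (0.00853). In d5 Y/T dKD+FGF2 the order of level was Pcp4l1 (21.3 CPM per kilobase), Cacng7 (2.82), Nrgn (1.79), Nptx1 (0.827), Draxin (0.517) and Map2 (0.0154).

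**Figure D3:**
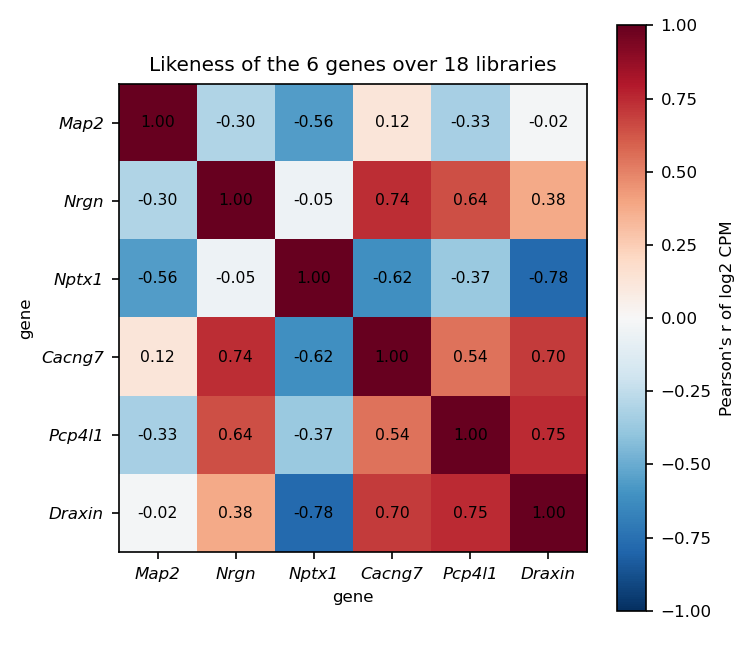
Pearson's r of log2 CPM between each pair of the 6 genes over 18 libraries (red above 0, blue below). Pcp4l1 and Draxin (r = 0.75) and Nrgn and Cacng7 (r = 0.74) were most alike, and Nptx1 and Draxin (r = −0.78) least.

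Over the 18 libraries, as a description of group levels that share days and arms, Nptx1 ran against 4 of the other genes, with r of −0.37 with Pcp4l1, −0.56 with Map2, −0.62 with Cacng7 and −0.78 with Draxin, and was −0.05 with Nrgn. Cacng7, Pcp4l1, Nrgn and Draxin were all positively related to each other, from r = 0.38 (Nrgn and Draxin) to r = 0.75 (Pcp4l1 and Draxin). Map2 had r of −0.56 with Nptx1, −0.33 with Pcp4l1 and −0.30 with Nrgn, and −0.02 with Draxin and 0.12 with Cacng7.

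The nearest relatives of the 6 genes were mostly unexpressed. Pcp4 was at 0 in all libraries, and Mapt, Dcc, Nptx2, Cacng4 and Cacng8 stayed under 10 counts in every library. Map1b, the early neuronal relative of Map2, rose with FGF2 at d2.5 (log2 fold change 0.57, standard error 0.03, edgeR adjusted p = 2.3e-15) and fell with the knockdown on both days (−0.24 and −0.64, adjusted p = 5.2e-06 and 2.1e-08). Map1b and Map2 were both lower under the knockdown at d5. Nptxr, the membrane-bound pentraxin, was raised by FGF2 at d2.5 (0.83, adjusted p = 1.0e-10) and lowered by it at d5 (−0.36, adjusted p = 0.0018). Ntn1, which encodes the netrin-1 that Draxin binds, was raised by FGF2 at d2.5 (0.68, adjusted p = 8.5e-04) and lowered by it at d5 (−1.01, adjusted p = 1.4e-08), and with the knockdown it fell at d2.5 (−0.54, adjusted p = 0.022) and rose at d5 (0.49, adjusted p = 1.6e-04). Gap43, of growing axons, was tested only at d2.5 and was not called (FGF2 −0.29, adjusted p = 0.48, and knockdown −0.64, adjusted p = 0.29).

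Around the members, 7 lists of neuronal genes held 174 other genes in the tables, of which 96 were tested at d2.5 and 94 at d5. With FGF2 at d2.5, 29 of 96 rose (30.2%, beside 33.5% of all genes tested) and 46 fell (47.9%, beside 34.1%), with a median log2 fold change of −0.17 beside 0.0022 over all genes. At d5 28 of 94 rose (29.8%, beside 23.5%) and 34 fell (36.2%, beside 23.7%), with a median of −0.10 beside 0.016. With the knockdown at d2.5, 11 rose (11.5%, beside 10.8%) and 19 fell (19.8%, beside 13.6%), with a median of −0.05 beside 0.0013. With the knockdown at d5, 23 rose (24.5%, beside 15.6%) and 28 fell (29.8%, beside 16.1%), with a median of −0.0097 beside 0.0034. The 11 rises at d2.5 became 5 without the third knockdown library and 6 without the third Ctrl+FGF2 library, and 7 without the first knockdown library.

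Among 21 tested genes of microtubule-associated proteins, 4 rose and 14 fell with FGF2 at d2.5 (19.0% and 66.7%, beside 33.5% and 34.1% of all genes), and 2 rose and 10 fell with the knockdown (9.52% and 47.6%, beside 10.8% and 13.6%). The axonal growth gene Stmn2 fell with FGF2 at d2.5, from 44.5 to 8.69 CPM (log2 fold change −2.37, standard error 0.08, edgeR adjusted p = 2.6e-22). Of 18 calmodulin and IQ motif genes, 8 rose and 7 fell with FGF2 at d2.5 (44.4% and 38.9%, beside 33.5% and 34.1% of all genes) and 6 rose and 6 fell at d5 (33.3% each, beside 23.5% and 23.7%). The calmodulin kinase inhibitor gene Camk2n1 fell at d2.5 and rose at d5 (−0.96 and 0.42, adjusted p = 1.8e-06 and 1.2e-04). Of 13 AMPA receptor and pentraxin genes, 7 rose and 2 fell with FGF2 at d2.5 (53.8% and 15.4%, beside 33.5% and 34.1% of all genes), and 6 rose and 6 fell at d5 (46.2% each, beside 23.5% and 23.7%). The receptor subunit gene Gria1 rose with FGF2 on both days (2.87 at d2.5, adjusted p = 2.3e-14 there and 1.6e-06 at d5) and fell with the knockdown at d5 (−0.79, adjusted p = 0.0040), as did Gria3 (−0.99, adjusted p = 3.6e-11).

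Of 8 tested calcium channel genes 5 rose and 1 fell with the knockdown at d5, where Cacng7 was lower (62.5% and 12.5%, beside 15.6% and 16.1% of all genes). Cacnb2 was the one that fell (−0.94, standard error 0.14, edgeR adjusted p = 4.5e-05), after rises with FGF2 on both days (1.51 and 1.18, adjusted p = 1.7e-13 and 2.8e-06). Of 13 tested guidance genes around Draxin and netrins, 2 rose (Ntn1 and Slit2) and 11 fell with FGF2 at d2.5 (15.4% and 84.6%, beside 33.5% and 34.1% of all genes), where Draxin was lower. The netrin-G gene Ntng1 fell most among those named by rule (−3.74, standard error 0.28, adjusted p = 2.9e-13), and the netrin receptor gene Unc5c fell by 1.60 on the log2 scale (adjusted p = 3.1e-22). At d5 4 of 14 rose and 8 fell with FGF2 (28.6% and 57.1%, beside 23.5% and 23.7%), and 3 rose and 8 fell with the knockdown, where Draxin was higher (21.4% and 57.1%, beside 15.6% and 16.1%). Of the 14 neuronal transcription regulators tested at d2.5, FGF2 raised 2 and lowered 6 (14.3% and 42.9%, beside 33.5% and 34.1% of all genes), and of 13 tested at d5 it raised 3 and lowered 1 (23.1% and 7.69%, beside 23.5% and 23.7%). The repressor gene Hes1 was raised by FGF2 at d2.5 and lowered by it at d5 (1.45 and −1.45, adjusted p = 1.5e-11 and 6.8e-07). Of 12 tested neuron markers at d2.5, 4 rose and 4 fell with FGF2 (33.3% each, near the 33.5% and 34.1% of all genes), among them Elavl2 (1.46, adjusted p = 3.2e-14) and Tubb3 (−0.94, adjusted p = 2.6e-10). Tubb3 fell further with the knockdown at d2.5 (−0.81, adjusted p = 9.0e-06), and Cacng7 was lower in the same 2 comparisons.

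**Figure D4:**
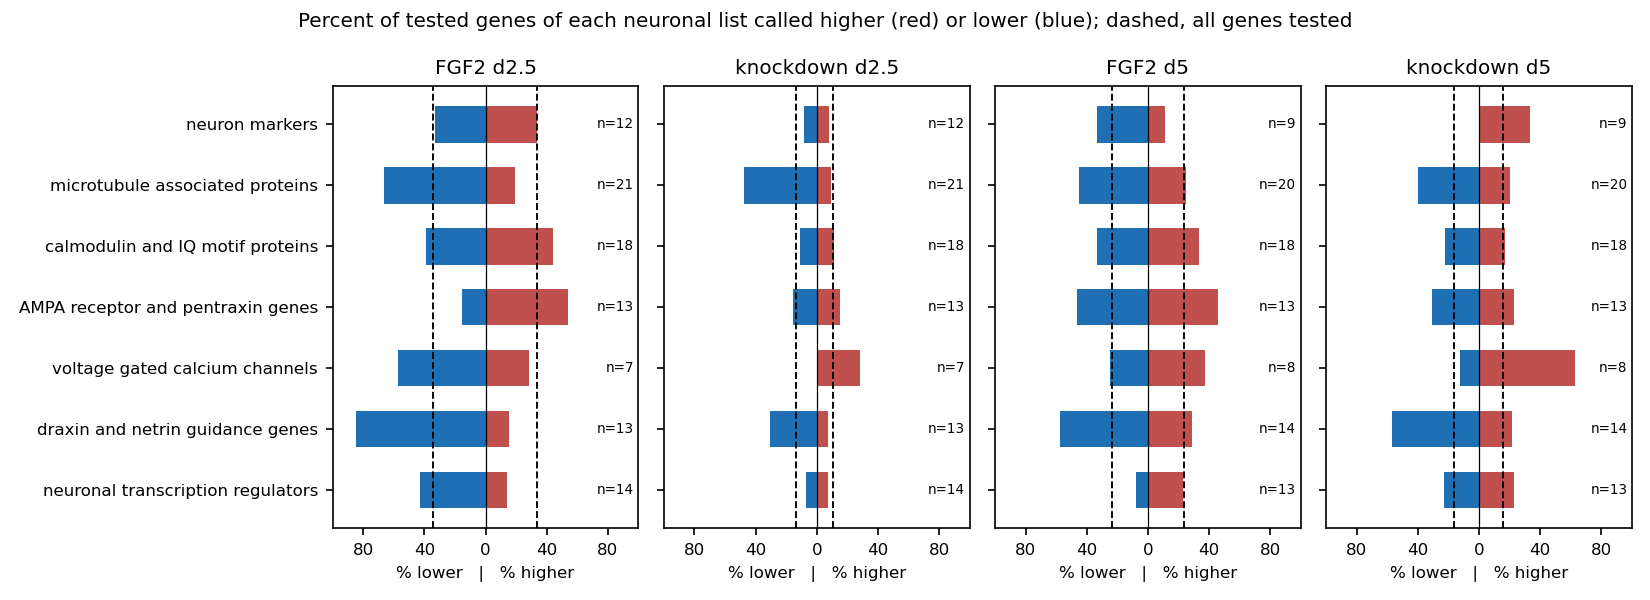
Percent of the tested genes of each neuronal list (members left out, n at the right) that were called higher (red, right) or lower (blue, left) at an adjusted p under 0.05, in 4 comparisons, with dashed lines at the percent of all tested genes. The lists hold 7 to 21 tested genes, so 1 gene moves a bar by several percentage points, and the guidance genes reached the highest bar, 84.6% lower with FGF2 at d2.5.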

How the data were processed

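Bulk polyA RNA of 18 O9-1 libraries was analysed. Per the labels the authors used FastQC, STAR, Picard and featureCounts with the mm10 build, with no versions stated in the sources used here, and deposited raw read counts per gene identifier in unstranded and strand-specific columns. The reverse-strand column was used, since it held 96.0% to 96.6% of the stranded gene counts. Reads assigned to no gene, 27.0% to 34.4%, were left out of library sizes. Symbols for 54587 of 55335 identifiers came from GENCODE M21 (GRCm38). Member values are raw counts and CPM with TMM factors, and intervals are exact binomial. Other listed genes were tested with edgeR's quasi-likelihood test (edgeR 4.0.16, R 4.3.3), in 1 fit of 9 libraries per day, filterByExpr and TMM, with Benjamini-Hochberg adjustment over all genes, after a check on simulated counts. The members and lists were chosen with earlier results of these data known. Named genes are the members, Yap1, Wwtr1, 10 fixed relatives, the called gene with the largest rise and fall in each list and comparison, and the 3 genes most like each member, while glia, neural crest and osteoblast markers are given mainly as summed levels. Alternatives covered scaling, strand, filters, DESeq2 1.42.0, the samples fitted, a replicate block and leaving out each library. Some listed genes were not analysed here.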

Additional observations from a re-analysis of the deposited data

Results flagged for a closer look

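The values in this part are log2 ratios of mean CPM whose libraries did not overlap between the groups on either day and lay on opposite sides at d2.5 and d5. The difference between the days was not tested, and each day is its own batch. Libraries did not overlap for 70.5% of all genes with FGF2 at d2.5, 54.4% with FGF2 at d5, 39.4% with the knockdown at d2.5 and 45.0% with the knockdown at d5.

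Among the members, Cacng7 was lower with FGF2 at d2.5 (−0.99) and higher at d5 (0.89), Pcp4l1 was lower at d2.5 (−2.97) and higher at d5 (1.06), and Nptx1 with the knockdown was lower at d2.5 (−0.24) and higher at d5 (2.74). The d2.5 value of Nptx1 was not past the edgeR threshold, which for a member is a description and not a test. Its fold interval of 0.976 to 1.43 includes no difference.

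Among relatives of the members, Nptxr was higher with FGF2 at d2.5 (0.85) and lower at d5 (−0.38). Ntn1 was higher with FGF2 at d2.5 (0.69) and lower at d5 (−1.02), and with the knockdown it was lower at d2.5 (−0.54) and higher at d5 (0.50).

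Of the other listed genes, those higher with FGF2 at d2.5 and lower at d5 were Ppp3cc (0.59 and −0.26), Ppp3r1 (0.090 and −0.37) and Camkk2 (0.13 and −0.12) of calcium and calmodulin signalling, Cnih4 (0.75 and −0.20) and Olfm1 (0.20 and −0.63) of the AMPA receptor list, the guidance gene Slit2 (1.07 and −0.74) and the repressor gene Hes1 (1.47 and −1.46). Those lower with FGF2 at d2.5 and higher at d5 were Camk2n1 (−0.95 and 0.41) and Camk1d (−0.19 and 0.36) of calmodulin signalling, Marcksl1 (−0.32 and 0.79), Porcn (−1.45 and 0.59) and Shisa4 (−1.08 and 0.77), the guidance gene Rgma (−0.41 and 1.15) and the regulators Id4 (−0.63 and 0.39), Sox4 (−0.84 and 0.90) and Ebf1 (−1.81 and 0.70). With the knockdown, Gria1 (0.30 and −0.77), Gria3 (0.24 and −0.98) and Id4 (0.34 and −0.35) were higher at d2.5 and lower at d5. Glia, neural crest and osteoblast markers are left out of these lists. Among the markers looked at one by one, Sox9, Mbp and Prrx2 were also lower with FGF2 at d2.5 and higher at d5, without overlap. Prrx2 and Col1a1 were lower with the knockdown at d2.5 and higher at d5, without overlap. On 1 of the days the edgeR test did not call the difference for Ppp3r1 (FGF2 at d2.5, adjusted p = 0.11), Olfm1 (FGF2 at d2.5, adjusted p = 0.11), Camkk2 (FGF2 at d5, adjusted p = 0.15), Gria1 (knockdown at d2.5, adjusted p = 0.081) and Gria3 (knockdown at d2.5, adjusted p = 0.070), so no reversal is shown for these 5 genes.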

How the results depend on the processing

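The direction of the member ratios in the FGF2 and knockdown comparisons was the same under every scaling and with unstranded counts. Leaving out 1 library at a time, Map2 with the knockdown at d2.5 ran from −0.062 to 0.41 on the log2 scale, and Draxin with FGF2 at d2.5 from −6.69 to −5.96, where fewer libraries raise the level of the floor. With library totals only, in place of TMM, Map2 with FGF2 at d5 was −0.31 in place of −0.43. That scaling shifts every log2 ratio of FGF2 to vehicle at d5 by 0.12, and those of d5 to d2.5 by −0.14 to −0.24, so that Cacng7 in vehicle cells was −0.011 in place of 0.23 between the days. Of the counts of listed genes, the rises with the knockdown at d2.5 ran from 5 to 12 when 1 library was left out, and the other counts over all 7 lists stayed within 1.5 times of the value given under all alternatives. Counts of single lists stayed within that bound in 705 cases under other processing, with 13 lower and 2 higher. With 1 library left out, 683 stayed within it, 27 were lower and 10 higher. Calls of named genes were the same in 1816 cases under other processing, lost in 24 and gained in 15. With 1 library left out, 1791 were the same, 65 were lost and 18 gained. Genes not called changed sign in a further 10 and 34 cases. Little pairing by replicate number was seen: same-numbered libraries of different groups had deviations correlated from −0.07 to 0.11, with 1 of 18 pairs over 0.1. Whether same-numbered libraries shared a culture or preparation was not tested. With a replicate block, 29 listed genes rose and 46 fell with FGF2 at d2.5, and 27 rose and 35 fell at d5. The limits are depth and number: genes near 1 count per library, such as Nrgn at d2.5, could not be compared, and 3 libraries a group may not be separate cultures.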
